A study of Homo sapiens with 8 samples.

Results

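The replication-dependent histone genes are the genes that supply the core and linker histones during S phase. They were taken here as every row of the gene count table whose symbol begins with H1-1 to H1-6, H2AC, H2BC, H3C or H4C, or with the older HIST1H to HIST4H. The rule found 81 of the 60282 genes in the table. Of these, 65 are annotated coding genes (6 of class H1, 16 of H2A, 17 of H2B, 12 of H3 and 14 of H4), 15 are pseudogenes, and the last is H1-10, a replication-independent linker histone that the pattern catches by its name. A total of 55 coding genes lie in the histone cluster of chromosome 6 and 10 in the cluster of chromosome 1, and H1-10 lies on chromosome 3 at chr3:129314771-129316277 (GRCh38).

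The cells were SK-UT-1, an established human line derived from a uterine leiomyosarcoma. They received TP-472 at 5 µM, an inhibitor of the bromodomain protein BRD9, or vehicle for 48 h, with 4 libraries in each group. RNA was sequenced, and the authors deposited estimated counts per gene. Vehicle libraries held 32574672 to 36634103 counts and TP-472 libraries 36246277 to 38545464. The methods state in general that experiments had biological replicates, but the sample descriptions do not say whether these libraries came from separate cultures. The p-values therefore measure the spread between these libraries, which may be technical.

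Replication-dependent histone genes have no introns as a rule and stand in clusters, many of them as head-to-head pairs of an H2A and an H2B gene. Their transcription rises in S phase through NPAT and associated factors in the histone locus body. The pre-mRNA carries a stem-loop that the protein SLBP binds. It is cut after this stem-loop with the help of the U7 snRNP, and most of the mature message carries no poly(A) tail. Some of these genes also give longer, polyadenylated messages outside S phase.

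The stem-loop is shown because it is the feature that sets these messages apart from other mRNAs. The search was for a 6-base stem beginning with GG, a loop of TTT and any base, and the exact reverse complement of the stem, over all transcripts of GENCODE release 29, which holds 43 of the 44 coding genes tested (not H3C2). Of these 43, 19 had it in an annotated transcript. The 4 forms found are written 5′ to 3′ as DNA, with both arms of the stem in capitals.
H2AC6, H2AC8, H2AC18, H2AC19, H2BC6, H2BC8, H2BC15, H2BC18, H2BC21 and H3C14: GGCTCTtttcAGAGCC
H2BC4, H2BC5 and H2BC7: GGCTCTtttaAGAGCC
H4C2, H4C5, H4C8 and H4C11: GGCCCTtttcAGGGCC
H4C14 and H4C15: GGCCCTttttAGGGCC
The annotated transcripts of the other 24 hold no such letters, and many of these records end at the stop codon.

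Vehicle replicate 3 stood apart from the other libraries. Its median Spearman correlation with the other vehicle libraries was 0.914 across the genes tested, against 0.988 to 0.989 for vehicle replicates 1, 2 and 4. The correlations of the TP-472 libraries with their own group were 0.993 to 0.997. Among the 47 histone genes tested, vehicle replicate 3 held the highest value of the 4 vehicle libraries for 20 (42.6%) and the lowest for 18. Of all genes, it was highest for 43.2% and lowest for 43.7%, so this was not particular to the histone genes. Results are therefore given with and without it.

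The share of reads on small RNAs that lack a poly(A) tail, such as RN7SL1 of the signal recognition particle, also differed between libraries. Summed over the 18 rows of this list, it was 10.7%, 14.1%, 10.4% and 13.8% of all counts in the vehicle libraries (replicates 1 to 4, as in all such lists) and 12.6%, 16.97%, 16.6% and 11.2% in the TP-472 libraries. TP-472 replicates 1 and 4 were thus lower than replicates 2 and 3. The histone genes followed the same order within the TP-472 group: 38 of the 47 tested (80.9%) were lower in both replicates 1 and 4 than in either of replicates 2 and 3, as were 25.6% of all genes tested. With the small-RNA level as a covariate, the fit called 11 histone genes lower (23.4%, beside 10.1% of all genes) and 3 higher (6.38%, beside 10.2%), of which 8 and 3 were among those called without it.

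To ask how histone messages responded to BRD9 inhibition, TP-472 was compared with vehicle. Of the 81 genes, 47 passed the filter of more than 1 CPM in 4 or more of the 8 libraries: 44 coding genes, the pseudogenes H2BC19P and H2BC20P, and H1-10. CPM is a count relative to its library's total, with TMM scaling where a level is given. It is not divided by gene length, so the highest CPM of a class does not mean the most molecules. A gene was called when its Benjamini-Hochberg adjusted p in edgeR's quasi-likelihood test was under 0.05 and its fold change over 1.5. In TP-472, 11 histone genes were called lower and 3 higher. In bulk samples, fewer cells in S phase and less histone RNA per cell cannot be told apart. The 14 called are 29.8% of the 47, beside a background of 26.9% of all 14073 genes tested, a share close to that of all genes.

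With all libraries, called lower were 23.4% of the histone genes beside 14.9% of all genes, and called higher were 6.38% beside 12%. The number called lower rested on single libraries of the TP-472 group. Without TP-472 replicate 4 it was 3 (6.38%, beside 11.5% of all genes), with 3 (6.38%) called higher beside 10.2%, so that the 2 directions had the same number. Without TP-472 replicate 1, 6 (12.8%, beside 10.6%) were called lower and 3 higher beside 9.68%. With all libraries, the log2 fold change was below 0 for 33 of the 47 (70.2%), against 51.8% of all genes tested, and its median was −0.33, against −0.03 over all genes. Without TP-472 replicate 4 these were 63.8% against 52.1%, and −0.26 against −0.03. Without TP-472 replicate 1 they were 70.2% against 52.2%, and −0.31 against −0.03. With each library's trend of level with GC content removed, a refit added after seeing the data, they were 63.0% against 50.2%, and −0.21 against −0.0033. With the small-RNA level as a covariate, also added after seeing the data, they were 80.9% against 50.6%, and −0.38 against −0.0087. Without vehicle replicate 3, 7 were called lower and 4 higher, beside 13.4% and 12% of all genes, and 6 of the 11 lower and all 3 higher calls were kept. The spread was then smaller, and by the adjusted p alone 24 of 47 (51.1%) were lower and 4 (8.51%) higher, beside 28.4% and 28.6% of all genes. The median log2 fold change without this library was −0.31, against −2.14e-05 over all genes. With no filter on low counts, 67 of the 81 genes could be tested, of which 14 (20.9%, beside 8.13% of all genes) were called lower and 6 (8.96%, beside 7.21%) higher. The groups did not overlap for 21 of the 47 histone genes (44.7%), beside 45.4% of all genes, and for 27 (57.4%), beside 58.5%, without vehicle replicate 3.

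**Figure D1:**
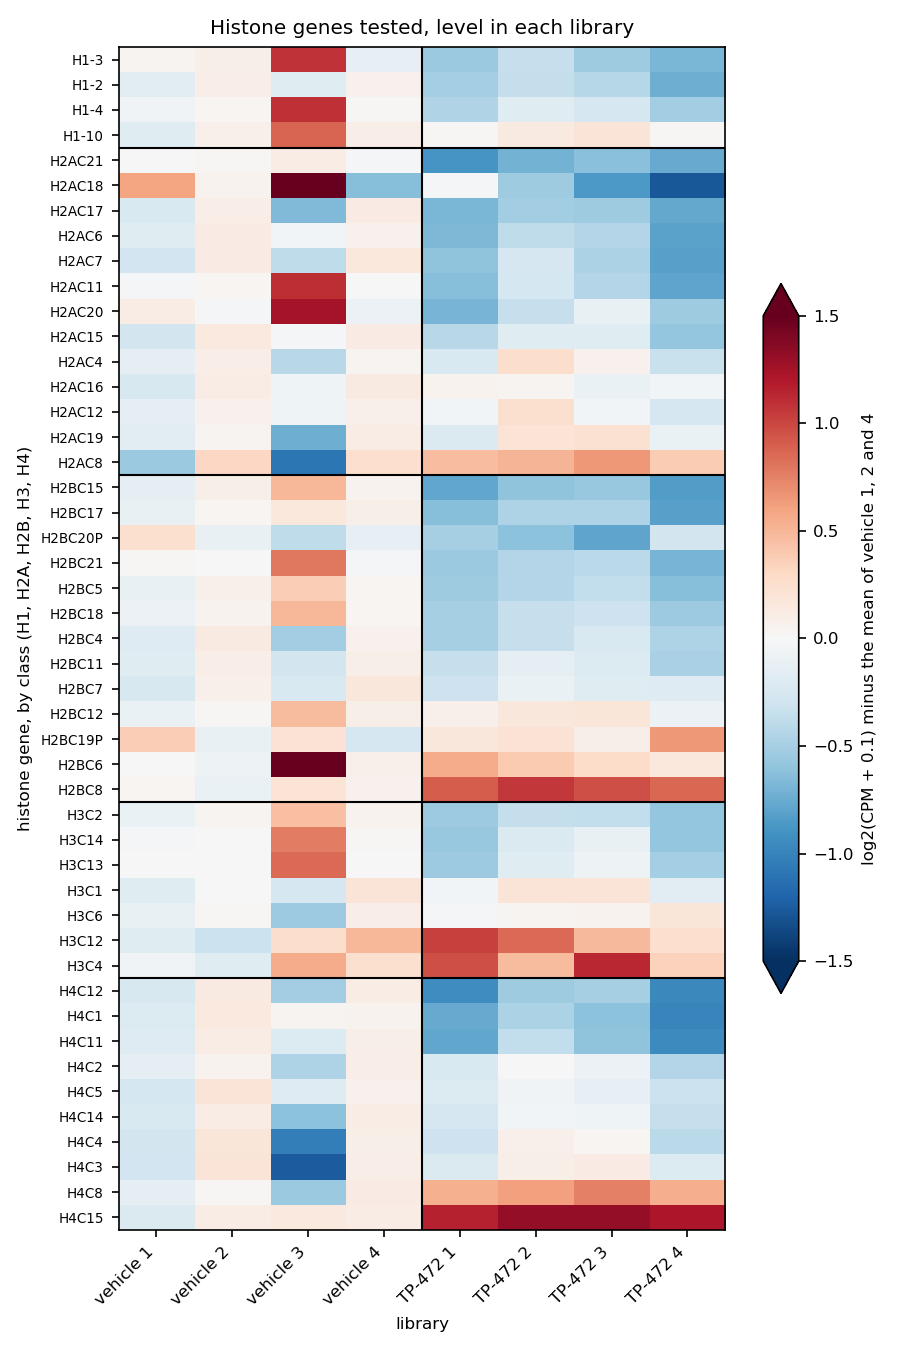
Level of the 47 histone genes tested in each of the 8 libraries, as log2(CPM + 0.1) minus the mean of vehicle replicates 1, 2 and 4, grouped by class. The TP-472 columns are mostly below 0, with H2AC8, H2BC8, H4C8 and H4C15 among the genes above 0 in all 4, while vehicle replicate 3 is far above its group for genes such as H1-4 and H2AC18 and far below it for H4C3.

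Of the H1 genes, which encode the linker histones that bind DNA between nucleosomes, 3 of 6 were tested and 1 fell. Here and in the other classes, the calls stand beside 14.9% of all genes called lower and 12% called higher. Each class holds few genes, and differences between classes were not tested. H1-3 (chr6:26234268-26234933) was at 16.5, 17.1, 34.2 and 14.7 CPM in vehicle and at 10.9, 12.6, 11.1 and 9.93 CPM in TP-472. Every TP-472 library was lower than every vehicle library, and vehicle replicate 3 was far above the rest. The log2 fold change of H1-3 was −0.89 ± 0.26 (SE, adjusted p = 0.0285, edgeR), and −0.53 ± 0.10 without vehicle replicate 3, which is under the fold limit. H1-4 (chr6:26156354-26157107) had the highest CPM of the class, 995, 1051, 2197 and 1044 CPM in the vehicle libraries and 752, 907, 868 and 716 CPM in the TP-472 libraries. These groups did not overlap either, but with all libraries the difference of −0.71 ± 0.26 missed the threshold (adjusted p = 0.0624, edgeR). Without vehicle replicate 3 it was −0.35 ± 0.09 (adjusted p = 0.0111). H1-2 had a log2 fold change of −0.46 ± 0.12 (adjusted p = 0.0207), below the fold limit.

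The replication-independent H1-10 serves as a comparison within the linker histones. Its log2 fold change was −0.18 ± 0.22 with all libraries and 0.09 ± 0.09 without vehicle replicate 3, and neither passed the test.

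Of the 16 H2A genes, 13 were tested, and H2AC21 and H2AC11 fell, beside 14.9% of all genes called lower. H2A pairs with H2B in the nucleosome core. H2AC21 (chr1:149887524-149887916) was at 90.0, 91.4, 97.0 and 88.7 CPM in the vehicle libraries and at 48.7, 55.2, 58.1 and 53.3 CPM in the TP-472 libraries. The 2 groups were far apart, and vehicle replicate 3 lay close to the other vehicle libraries. The log2 fold change was −0.77 ± 0.10 (adjusted p = 0.000661, edgeR), a 1.704-fold lower level, and −0.74 ± 0.07 without vehicle replicate 3. H2AC21 had the smallest adjusted p of the histone genes that fell, but with the GC trend removed it was at −0.43 ± 0.20 and not called (adjusted p = 0.0949). With vehicle replicate 3 left out as well it was called lower, at −0.61 ± 0.07 (adjusted p = 0.000145, edgeR).

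H2AC11 (chr6:27133042-27135291) was at 296, 307, 647 and 299 CPM in vehicle and 194, 251, 221 and 173 CPM upon TP-472 treatment. Its groups did not overlap, yet its log2 fold change of −0.89 ± 0.27 shrank to −0.52 ± 0.11 without vehicle replicate 3, under the fold limit. H2AC17 went the other way. Its vehicle values were 140.0, 175, 104 and 179 CPM and its TP-472 values 102, 114, 113 and 96.4 CPM, and its log2 fold change moved from −0.49 ± 0.17 (adjusted p = 0.0522) to −0.63 ± 0.10 (adjusted p = 0.000496, edgeR) without vehicle replicate 3, which was its lowest vehicle library.

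H2AC19 and H2AC18 encode the same protein from a duplicated segment of chromosome 1, and no 31-base stretch of H2AC18 is unique to it, so reads cannot be divided between them with confidence. H2AC19, the H2A gene with the highest CPM, was at 802, 922, 536 and 962 CPM in vehicle and 771, 1028, 1047 and 833 CPM in TP-472. Its groups overlapped (log2 fold change 0.19 ± 0.20, adjusted p = 0.465). In the same libraries H2AC18 was at 171, 118, 882 and 72.5 CPM and at 112, 78.5, 62.5 and 46.7 CPM. Only vehicle replicate 3 was high for H2AC18, and it was the lowest vehicle library for H2AC19. Their sum was 1117 ± 204 CPM in vehicle and 995 ± 131 CPM in TP-472 (SD, n = 4, exact permutation p = 0.343, two-sided).

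The remaining H2A genes tested had log2 fold changes from −0.83 (H2AC20) to 0.69 (H2AC8), none of them called. H2AC6 passed the adjusted p threshold but not the fold limit, at −0.56 ± 0.13 (adjusted p = 0.0109), and with the GC trend removed it was called lower (−0.72 ± 0.15). H2AC4 was at 0.05 ± 0.17, and H2AC12 and H2AC16 lay still nearer to 0.

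Among the H2B genes, the partners of H2A, 5 were called: of 11 coding genes tested, H2BC15, H2BC17, H2BC5 and H2BC21 fell and H2BC8 rose. Over all genes tested, 26.9% were called in either direction. H2BC15 (chr6:27837760-27865798) was at 97.1, 113, 151 and 111 CPM in vehicle replicates and at 62.2, 70.3, 71.9 and 59.5 CPM in TP-472 replicates. Its groups were apart with and without vehicle replicate 3, with log2 fold changes of −0.84 ± 0.15 (adjusted p = 0.00327) and −0.70 ± 0.09. The annotated H2BC15 gene spans H2AC15, which lies on the opposite strand. All 31-base stretches of H2AC15 also occur in H2BC15 transcripts when both strands are compared, so such reads can be told apart only by their strand. H2BC17 (chr6:27893463-27893843) was at 239, 263, 288 and 274 CPM and at 165, 187, 187 and 147 CPM. The difference was −0.63 ± 0.12 (adjusted p = 0.00399), and −0.59 ± 0.09 without vehicle replicate 3, just past the fold limit. With the GC trend removed, H2BC17 was at −0.36 ± 0.15 and not called (adjusted p = 0.0751), nor was it with vehicle replicate 3 left out as well.

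H2BC5 (chr6:26158146-26171349) and H2BC21 (chr1:149884459-149886652) are among the histone genes known to give polyadenylated messages as well. H2BC5 was at 258, 293, 361 and 285 CPM in vehicle and at 192, 205, 215 and 179 CPM in TP-472. H2BC21, the H2B gene with the highest CPM, was at 467, 463, 800.0 and 454 CPM and at 315, 339.6, 349 and 285 CPM. In both, every TP-472 library was lower than every vehicle library, and vehicle replicate 3 was the highest. H2BC5 had a log2 fold change of −0.60 ± 0.13 (adjusted p = 0.00754), or −0.49 ± 0.08 without vehicle replicate 3. The value of H2BC21 was −0.76 ± 0.20 (adjusted p = 0.0171), or −0.52 ± 0.08. Without vehicle replicate 3 both were under the fold limit.

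H2BC8 (chr6:26215159-26216692) rose from a low level. It was at 3.21, 2.93, 3.65 and 3.29 CPM in vehicle and 5.98, 6.68, 6.22 and 5.79 CPM upon TP-472 treatment, with tight groups that did not overlap. The log2 fold change was 0.91 ± 0.14 (adjusted p = 0.00148, edgeR), a 1.88-fold higher level, and 0.97 ± 0.11 without vehicle replicate 3.

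Histone H3, which carries many of the lysines that are acetylated in chromatin, had 7 of 12 genes tested and 1 call, beside 26.9% of all genes. H3C2 (chr6:26031589-26032099) was at 395, 433, 578 and 439 CPM in vehicle and at 289, 329.9, 325 and 282 CPM in TP-472. No TP-472 value of H3C2 reached the lowest vehicle value, and the log2 fold change was −0.59 ± 0.14 (adjusted p = 0.0116), or −0.46 ± 0.08 and under the fold limit without vehicle replicate 3. H3C14, the H3 gene with the highest CPM, was at 748, 755, 1282 and 765 CPM in vehicle and 509, 651, 701 and 506 CPM in TP-472. It shares all of its 31-base stretches with HIST2H3A, another copy in the same cluster. Its difference of −0.59 ± 0.21 missed the threshold (adjusted p = 0.0557). H3C13 has 48.8% of its 31-base stretches in H3C14 as well. The sum of both genes, which does not include further copies, was 1123 ± 341 CPM in vehicle and 749 ± 125 CPM in TP-472 (SD, n = 4, exact permutation p = 0.0286, two-sided, the smallest these libraries can give). Vehicle replicate 3 was highest at 1634 CPM, and without it the vehicle mean was 952 ± 8.56 CPM (SD, n = 3, exact permutation p = 0.0571, two-sided). The other H3 genes tested split in direction: H3C13 was at −0.57 ± 0.22, while H3C4, H3C12, H3C6 and H3C1 had log2 fold changes of 0.63, 0.62, 0.18 and 0.10, none called with all libraries. H3C4 was called higher without vehicle replicate 3 (0.80 ± 0.25, adjusted p = 0.0205), at a level of 1.28 ± 0.33 CPM in vehicle and 1.99 ± 0.54 CPM in TP-472 (SD, n = 4), although its sequence lies wholly within an overlapping annotated transcript. With the GC trend removed, H3C4 (1.03 ± 0.23, adjusted p = 0.00547) and H3C12 (0.98 ± 0.29, adjusted p = 0.0185) were called higher, also with vehicle replicate 3 left out (0.92 and 0.80).

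Both directions were seen among the H4 genes: of 10 tested, H4C1, H4C11 and H4C12 fell and H4C8 and H4C15 rose, all of which kept their calls without vehicle replicate 3. Over all genes tested, 26.9% were called with all libraries and 25.5% without vehicle replicate 3. Without TP-472 replicate 4, H4C1 was still called lower, but H4C11 and H4C12 were not. H4 is the most conserved of the histones, and the 10 genes tested encode the same protein. H4C1 (chr6:26021679-26021990) was at 45.8, 58.4, 54.2 and 54.7 CPM in vehicle and 31.2, 37.8, 34.3 and 26.6 CPM in TP-472. The groups were apart, and the log2 fold change was −0.72 ± 0.14 (adjusted p = 0.00443), or −0.71 ± 0.12 without vehicle replicate 3. H4C11 (chr6:27824108-27824480) was at 168, 207, 166 and 204 CPM and at 111, 149, 127 and 98.9 CPM, a log2 fold change of −0.62 ± 0.15 (adjusted p = 0.0130). H4C12 (chr6:27831216-27831527), all of whose 31-base stretches also occur in H4C11, was at 282, 367, 233 and 359 CPM and at 175, 231, 237 and 171 CPM, with vehicle replicate 3 inside the range of the TP-472 libraries. The log2 fold change of H4C12 was −0.61 ± 0.18 (adjusted p = 0.0301), or −0.72 ± 0.14 without vehicle replicate 3. The sum of H4C11 and H4C12 does not depend on how their shared reads were divided. It was 496 ± 85.6 CPM in vehicle and 325 ± 55.0 CPM in TP-472 (SD, n = 4), and its groups did not overlap (exact permutation p = 0.0286, two-sided, the smallest that 4 against 4 libraries can give).

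With the GC trend removed, none of the 3 was called lower, at −0.43 ± 0.20 for H4C1 (adjusted p = 0.0998), −0.33 ± 0.26 for H4C11 (adjusted p = 0.308) and −0.33 ± 0.33 for H4C12 (adjusted p = 0.432), while both genes that rose kept their calls. With vehicle replicate 3 left out as well, H4C1 (−0.60) and H4C12 (−0.60) were called lower, and H4C11 (−0.55) and H4C8 (0.58) were under the fold limit.

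H4C8 (chr6:26277609-26285638) was at 36.9, 41.5, 27.7 and 44.7 CPM in vehicle and at 59.5, 62.7, 69.1 and 59.8 CPM in TP-472. All TP-472 libraries were higher. The log2 fold change of H4C8 was 0.73 ± 0.15 (adjusted p = 0.00662), or 0.61 ± 0.08 without vehicle replicate 3. H4C15 (chr1:149854045-149861210) showed the largest rise of the histone genes tested, from 6.37, 8.02, 8.22 and 8.07 CPM to 16.7, 18.7, 18.7 and 17.4 CPM, a log2 fold change of 1.22 ± 0.13 (adjusted p = 0.000279, edgeR). H4C15 shares 97.2% of its 31-base stretches with H4C14, the H4 gene with the highest CPM, at 815, 1026, 621 and 1029.9 CPM in vehicle and 799, 924, 907 and 749 CPM in TP-472. The groups overlapped for H4C14 (log2 fold change −0.05 ± 0.18) and for the sum of both genes, 881 ± 196 CPM in vehicle and 863 ± 85.1 CPM in TP-472 (SD, n = 4, exact permutation p = 0.943, two-sided). The value of H4C15 rests on how salmon divided the reads that both genes share.

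**Figure D2:**
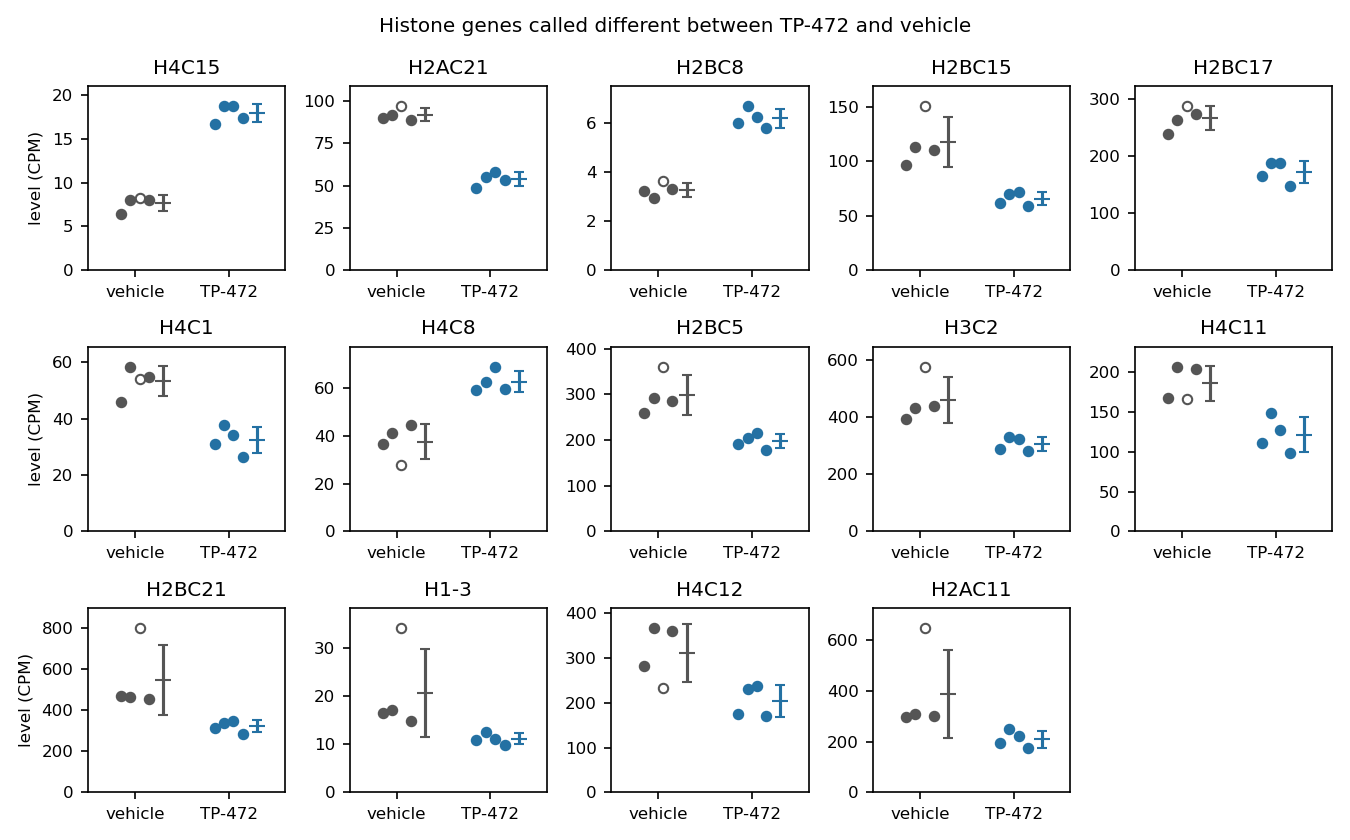
Level in CPM of the 14 histone genes called different, in 4 vehicle libraries (grey, vehicle replicate 3 as an open circle) and 4 TP-472 libraries (blue), with mean ± SD beside the points and each axis from 0. The groups overlap only for H4C12, and vehicle replicate 3 stands far above its group for H2BC21, H1-3 and H2AC11.

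**Figure D3:**
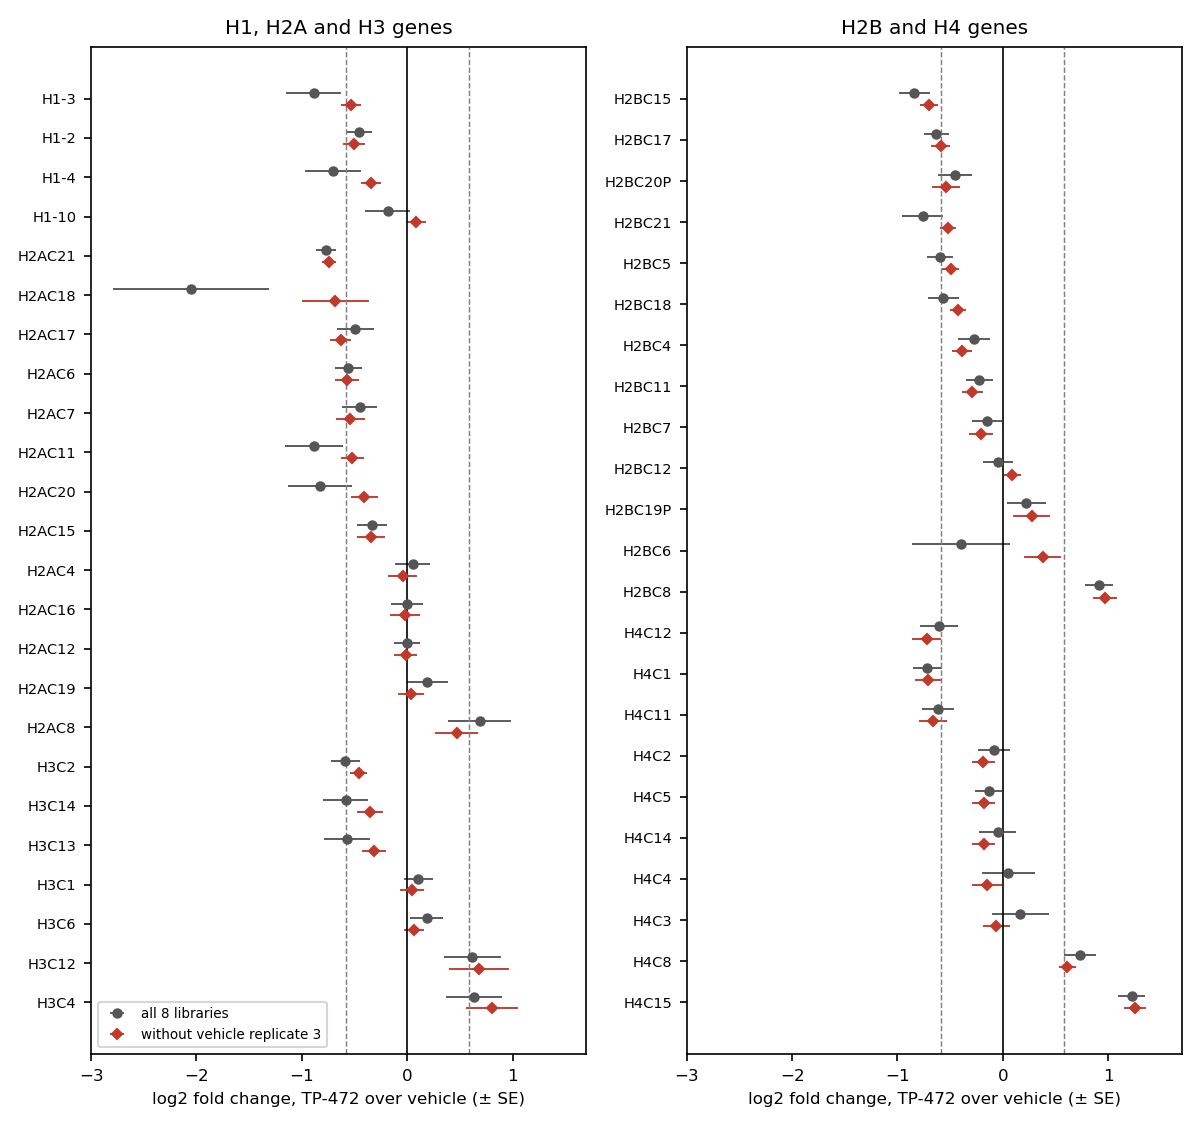
Log2 fold change of TP-472 over vehicle ± SE for the 47 histone genes tested, with all 8 libraries (grey circles) and without vehicle replicate 3 (red diamonds). Dashed lines mark the fold limit of 1.5. H2AC18 moves most, from −2.05 to −0.68, while H2AC21, H4C1, H2BC8 and H4C15 keep almost the same value.

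Since near-identical copies share reads, the levels of the coding genes of each class were also summed, without a test. The sums do not cover reads shared with genes outside them. H3C14 shares all of its 31-base stretches with HIST2H3A, and H2AC7 and H2BC12 share 98.1% and 74.4% of theirs with other genes outside the sums. In vehicle, H1-4, which was not called, held a mean of 1322 of the 1708 CPM of the H1 sum. The H1 sum was 1344, 1472, 2562 and 1452 CPM in the vehicle libraries and 1028, 1214, 1159 and 953 CPM in the TP-472 libraries. The H2A sum was 2560.0, 2797, 3845 and 2751 CPM against 1978, 2467, 2441 and 1927 CPM. The H2B sum was 2144, 2382, 2904 and 2364 CPM against 1674, 1841, 1886 and 1566 CPM. In these 3 classes every TP-472 library was lower than every vehicle library. The same held for H3, at 1387, 1436, 2257 and 1461 CPM against 987, 1215, 1275 and 976 CPM. H4 differed in that its groups overlapped and vehicle replicate 3 was lowest, at 1798, 2297, 1438 and 2261 CPM against 1644, 1960.5, 1922 and 1551 CPM. The ratios of the means were 0.637 for H1, 0.737 for H2A, 0.711 for H2B, 0.681 for H3 and 0.908 for H4, and 0.765, 0.815, 0.758, 0.780 and 0.835 without vehicle replicate 3. All histone genes together took 0.975%, 0.992%, 1.39% and 1.01% of the counts in the vehicle libraries and 0.739%, 0.824%, 0.841% and 0.735% in the TP-472 libraries.

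**Figure D4:**
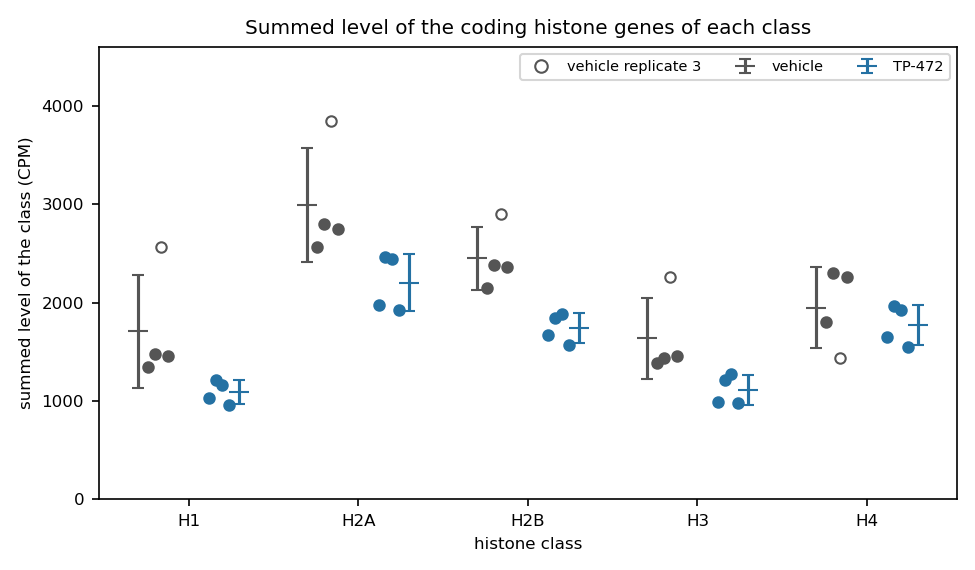
Summed level in CPM of the coding genes of classes H1, H2A, H2B, H3 and H4 in each vehicle (grey) and TP-472 (blue) library, with mean ± SD beside the points. TP-472 libraries lie below all vehicle libraries in every class but H4, where vehicle replicate 3 (open circle, 1438 CPM) is the lowest library.

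The H2A and H2B genes that stand head to head were compared within pairs. In none of the 8 pairs with both genes tested were both called with all libraries, and in 1, H2AC17/H2BC17, without vehicle replicate 3. Of the 8 pairs, 6 had log2 fold changes below 0 in both genes and H2AC8/H2BC8 had both above 0, and these numbers were the same without vehicle replicate 3. Among all 47 histone genes 70.2% were below 0. Start sites from RefSeq were at hand for 7 of the 8 pairs and lay 194 to 248 bases apart. Without vehicle replicate 3, H2AC8 was at 0.47 ± 0.21 and H2BC8 at 0.97 ± 0.11, so the only pair with both values above 0 was one whose genes are expressed at a few CPM. At the opposite end, H2AC17 and H2BC17 were at −0.63 ± 0.10 and −0.59 ± 0.09, and H2AC20 and H2BC21 at −0.41 ± 0.13 and −0.52 ± 0.08. For H2AC12 and H2BC12 the values were −0.01 ± 0.11 and 0.09 ± 0.08.

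**Figure D5:**
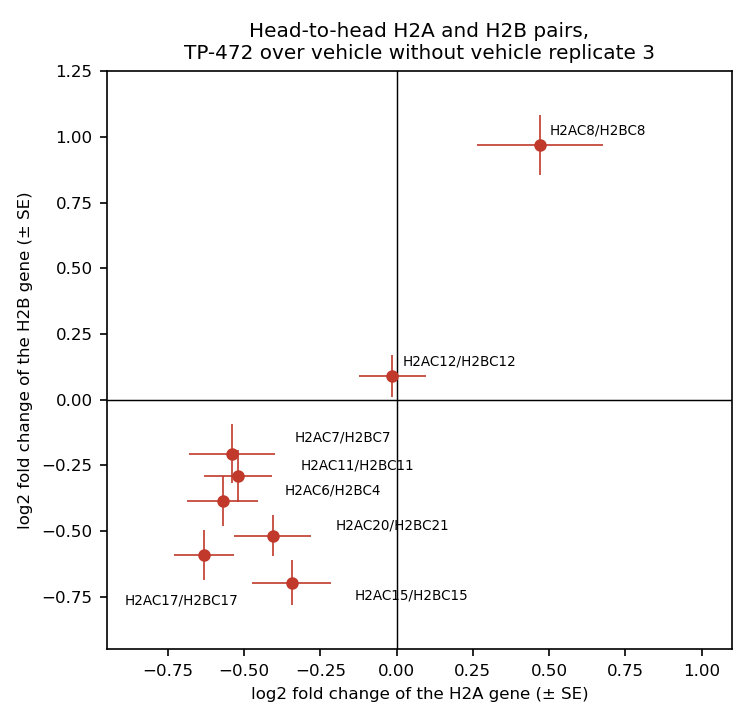
Log2 fold change ± SE of the H2B gene against that of its H2A neighbour for the 8 pairs with both genes tested, TP-472 over vehicle without vehicle replicate 3. Of the 8 pairs, 6 lie below 0 on both axes and H2AC8/H2BC8 alone lies above 0 on both.

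The promoters of members that moved in opposite directions are shown for comparison, from RefSeq on GRCh38.p14, 250 bases before to 50 after the annotated start, written 5′ to 3′ in the direction of the gene. Capitals mark TATAAA (the TATA box), CCAAT (the CCAAT box), ATTTGCAT (the octamer that OCT1 binds in H2B promoters) and AAACACA (an element of H1 promoters) on either strand. H2BC8, which rose, and H2BC17, which fell, are each a member of a head-to-head pair, H2AC21 had the smallest adjusted p of the genes that fell, and H1-3 stands for the H1 class.
H2BC8, chr6:26216639-26216938, minus strand: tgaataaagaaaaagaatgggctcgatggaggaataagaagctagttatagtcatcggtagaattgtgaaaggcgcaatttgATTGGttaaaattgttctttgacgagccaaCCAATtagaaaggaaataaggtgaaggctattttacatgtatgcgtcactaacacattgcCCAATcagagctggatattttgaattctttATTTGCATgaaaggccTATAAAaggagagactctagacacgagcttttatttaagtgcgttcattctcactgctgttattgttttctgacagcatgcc
H2BC17, chr6:27893175-27893474, plus strand: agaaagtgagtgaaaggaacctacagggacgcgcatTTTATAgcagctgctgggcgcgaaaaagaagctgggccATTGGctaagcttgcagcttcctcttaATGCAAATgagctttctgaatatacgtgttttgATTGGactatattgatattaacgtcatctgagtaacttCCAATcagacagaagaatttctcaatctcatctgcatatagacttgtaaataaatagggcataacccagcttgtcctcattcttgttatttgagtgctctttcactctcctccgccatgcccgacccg
H2AC21, chr1:149887916-149888215, minus strand: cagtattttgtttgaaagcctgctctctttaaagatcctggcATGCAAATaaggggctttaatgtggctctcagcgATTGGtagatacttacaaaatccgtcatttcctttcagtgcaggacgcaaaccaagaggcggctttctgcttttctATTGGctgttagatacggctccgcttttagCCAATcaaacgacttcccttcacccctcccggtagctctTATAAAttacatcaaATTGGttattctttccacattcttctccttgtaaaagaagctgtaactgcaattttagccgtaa
H1-3, chr6:26234938-26235237, minus strand: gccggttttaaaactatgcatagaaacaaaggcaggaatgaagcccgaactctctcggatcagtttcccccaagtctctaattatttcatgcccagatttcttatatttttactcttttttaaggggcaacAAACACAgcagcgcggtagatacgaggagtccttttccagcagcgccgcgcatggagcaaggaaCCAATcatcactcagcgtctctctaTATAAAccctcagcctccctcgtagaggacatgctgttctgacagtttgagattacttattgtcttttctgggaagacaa
H2BC8 holds TATAAA beginning 32 bases and the octamer beginning 48 bases before the start. In H2BC17 both were found on the opposite strand only, 214 and 149 bases before the start, on the side of H2AC17. The promoter of H1-3 has AAACACA 119 bases and CCAAT 55 bases before the start.

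Over the 60 coding histone genes with a promoter in the table, the octamer was present in 14 of 17 H2B and 11 of 15 H2A promoters and in 0 of the 28 H1, H3 and H4 promoters, beside 1.77% of all 35116 promoters. AAACACA was in 6 of 6 H1 promoters, beside 5.64% of all promoters. CCAAT was in every H1, H2A, H2B and H3 promoter but in only 3 of 12 H4 promoters, beside 34.6% of all, and TATAAA was in 41 of the 60, beside 11.5% of all. Of the genes that fell, 10 had a promoter in the table, with TATAAA in 9, CCAAT in 8 and the octamer in 4. The 3 genes that rose had each of these letters in 1 promoter, that of H2BC8. H4C8 and H4C15, which also rose, are of class H4, where 0 of 12 promoters held the octamer and 3 CCAAT. Class and direction therefore cannot be told apart here. Among the 27 promoters of coding genes tested and not called, 19 held TATAAA, 23 CCAAT and 13 the octamer. A match describes the sequence only and is not evidence of binding.

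By location, 34 coding genes tested lie in the chromosome 6 cluster, of which 9 fell and 2 rose (median log2 fold change −0.25), and 10 lie in the chromosome 1 cluster, of which 2 fell and 1 rose (median −0.58). Without vehicle replicate 3, 6 fell and 3 rose on chromosome 6 and 1 fell and 1 rose on chromosome 1, with medians of −0.25 and −0.38. Of all genes tested, 14.9% were called lower and 12% higher with all libraries, and 13.4% and 12% without vehicle replicate 3. The length of the annotated transcripts was compared in the same way. Among the 19 coding genes with a stem-loop in a transcript, 13 have an annotated transcript that goes on for more than 100 bases after it, a limit chosen after the values were seen. These 13 include all 3 genes that rose, H2BC8 (1059 bases), H4C8 (1655 bases) and H4C15 (1314 bases), and also H2BC15 and H2BC21, which fell. Of the 6 without such a transcript, H2BC5 and H4C11 fell. Median log2 fold changes were −0.27 (the 13) and −0.34 (the 6), or −0.21 and −0.34 without vehicle replicate 3. Of the 6 histone genes listed for known polyadenylated messages (H1-2, H2AC6, H2BC4, H2BC5, H2BC12 and H2BC21), 2 fell and none rose, with a median log2 fold change of −0.51. None of the 6 was called without vehicle replicate 3, with a median of −0.50.

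A total of 34 genes stayed under the filter, 21 of them coding. Of these 34, 14 had no count in any library, including the coding genes H2BC10, H3C11, H4C6, H4C7 and H4C13. At a floor of 3 counts, a count of 0 allows a level of up to 0.0868 CPM in the shallowest library, counting error only. The 3 highest of the genes under the filter were H1-6, H4C9 and H3C7. H1-6, a linker histone known from the testis, had 8, 14, 10 and 4 counts in the vehicle libraries and 29, 25, 18 and 37 in the TP-472 libraries. These counts did not overlap (0.256 ± 0.122 against 0.733 ± 0.196 CPM, SD, n = 4, exact permutation p = 0.0286, two-sided). H4C9 had 12, 20, 11 and 27 counts against 20, 16, 16 and 19 (p = 0.943 by the same exact test). H3C7 had 10, 12, 9 and 16 counts against 19, 16, 31 and 14 (exact permutation p = 0.0571). The pseudogene H3C9P was the only other gene under the filter with a mean of at least 10 counts, at 7, 4, 1 and 7 against 23, 20, 20 and 19 counts (p = 0.0286, exact permutation test, two-sided).

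The genes that act on histone genes and histone messages were examined beside them. Over all genes tested, 14.9% were called lower and 12% higher, with a median log2 fold change of −0.03. Without vehicle replicate 3 these shares were 13.4% and 12%. Of 26 genes for histone gene transcription and histone mRNA processing, all tested, 1 was called higher and none lower, with a median log2 fold change of 0.10. The gene called was CCNE1, the cyclin E that activates NPAT through CDK2, at 24.1 ± 3.14 CPM in vehicle and 37.8 ± 1.81 CPM in TP-472 (SD, n = 4, log2 fold change 0.65 ± 0.12, adjusted p = 0.00388). NPAT, the transcriptional coactivator of the histone locus body, was at 83.7 ± 16.2 and 88.5 ± 6.71 CPM (log2 fold change 0.08 ± 0.15, and −0.05 ± 0.07 without vehicle replicate 3). CASP8AP2, also of the histone locus body, was at −0.08 ± 0.14, and at −0.20 ± 0.07 (adjusted p = 0.0313) without that library. SLBP, the stem-loop binding protein, was at 114 ± 24.1 CPM and 153 ± 8.42 CPM, with a log2 fold change of 0.43 ± 0.16 that missed the threshold (adjusted p = 0.0572). SLBP without vehicle replicate 3 was at 0.31 ± 0.09 and passed the adjusted p (0.0161), under the fold limit.

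Among the U7 snRNP factors, LSM11 was at 0.33 ± 0.13 (adjusted p = 0.0785) and LSM10 at 0.30 ± 0.25 (adjusted p = 0.371), both on the log2 fold scale. LSM10 was called higher without vehicle replicate 3 (0.61, adjusted p = 0.00414). ZNF473, a zinc finger protein of histone pre-mRNA processing, rose by the adjusted p alone, at 0.55 ± 0.09 (adjusted p = 0.00217), under the fold limit. ERI1, the exonuclease that degrades histone mRNA, was at 0.49 ± 0.23 (adjusted p = 0.121). ERI1 (0.28 ± 0.07, adjusted p = 0.00533) and LSM11 (0.22 ± 0.06, adjusted p = 0.0107) passed the adjusted p, not the fold limit, without vehicle replicate 3. The highest CPM in the list were those of CPSF2, part of the cleavage complex, at 0.09 ± 0.18, and YY1, a transcription factor, at −0.22 ± 0.09, neither of them called. They were at −0.08 ± 0.06 and −0.21 ± 0.07 without vehicle replicate 3.

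Histone genes outside the rule were read in the same way, beside 14.9% of all genes called lower and 12% higher. Without vehicle replicate 3 these shares were 13.4% and 12%. H2AW and H2BU1, clustered histone genes that carry other symbols and so escape the rule, had log2 fold changes of 0.31 ± 0.20 and −0.32 ± 0.20, and of 0.53 ± 0.13 (adjusted p = 0.00551, under the fold limit) and −0.07 ± 0.10 without vehicle replicate 3. Of 10 replication-independent histone variants tested, which include H1-10 for comparison, MACROH2A2, a variant of silent chromatin, was called lower at −0.69 ± 0.19 (adjusted p = 0.0197) but not without vehicle replicate 3 (−0.47), and those with the highest CPM, H2AZ1 and H3-3B, were at 0.18 ± 0.24 and 0.54 ± 0.20. Without that library H2AZ1 was at −0.02 ± 0.11 and H3-3B at 0.37 ± 0.10 (adjusted p = 0.0115). Of 21 histone chaperones and deposition factors, CABIN1, of the HIRA complex, was called lower at −0.95 ± 0.33 (adjusted p = 0.0478), also not without vehicle replicate 3 (−0.47). Without that library ATRX, of the ATRX-DAXX deposition complex, was called lower (−0.62 ± 0.08, adjusted p = 0.000168) and IPO4, an importin, higher (0.62 ± 0.08, adjusted p = 0.000129). NAP1L1 and SUPT16H, with the highest CPM of this list, were at 0.16 ± 0.21 and 0.15 ± 0.16, and at −0.03 ± 0.07 and 0.01 ± 0.07 without vehicle replicate 3.

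Because histone messages depend on S phase, cell cycle genes were read in the same fit. Of 30 S-phase genes, all tested, 2 rose and none fell, beside 12% of all genes called higher and 14.9% called lower. The median log2 fold change of this list was 0.05, against −0.03 over all genes. CDC6, which loads the replicative helicase, rose from 48.0 ± 6.73 to 85.1 ± 2.24 CPM (0.83 ± 0.12, adjusted p = 0.00123), and CCNE1 was the other. MCM7, a helicase subunit, was at 0.28 ± 0.11 and RRM2, a subunit of ribonucleotide reductase, at 0.41 ± 0.13, both under the fold limit. None of 24 G2/M genes was called, with a median of −0.14. TOP2A and CENPF, with the highest CPM, were at −0.43 ± 0.16 (adjusted p = 0.0681) and −0.53 ± 0.10 (adjusted p = 0.00410). Without vehicle replicate 3 the G2/M list had 3 genes called lower (CDK1, NUSAP1 and CDC25C), beside 13.4% of all genes. TOP2A was then at −0.57 ± 0.07 (adjusted p = 0.000123), just under the fold limit. Of 12 rows tested for small RNAs without a poly(A) tail, where RMRP has more than 1 row, RN7SL3 was called higher (0.91 ± 0.28, adjusted p = 0.0338). RN7SL1 and RN7SL2, with the highest CPM, were at 0.31 ± 0.30 and 0.52 ± 0.33, and at 0.13 ± 0.26 and 0.29 ± 0.24 without vehicle replicate 3. The median of the 12 rows was −0.36, or 0.03 without vehicle replicate 3. SCARNA2 was also called higher without that library (0.60 ± 0.17, adjusted p = 0.0119).

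Markers of cell types were read as a check of the line. Of 8 smooth muscle markers, 7 passed the filter, and the 8 summed to 439.0 to 523.7 CPM in vehicle and 370.6 to 379.8 CPM in TP-472 libraries. CALD1 had the highest CPM, at 199.6 ± 15.3 CPM in vehicle and 192 ± 5.65 CPM in TP-472, followed by ACTA2 at 160.3 ± 16.7 and 109 ± 3.52 CPM. DES was at only 3.25 ± 0.20 and 0.63 ± 0.17 CPM, and MYH11, the myosin of differentiated smooth muscle, had at most 10 counts in any library. Epithelial markers summed to 17.5 to 23.1 CPM in vehicle and 20.4 to 26.8 CPM in TP-472 libraries, led by KRT18 and KRT19. These 2 went opposite ways: KRT18 was at 7.39 ± 0.87 CPM in vehicle and 15.6 ± 1.47 CPM in TP-472, and KRT19 at 8.88 ± 1.78 and 4.93 ± 1.15 CPM. Endothelial markers summed to at most 0.581 CPM, with none of 3 passing the filter. The 4 blood and immune markers summed to 6.68 to 7.90 CPM in vehicle and 8.93 to 12.2 CPM in TP-472 libraries, nearly all of it CD68, a lysosomal protein of macrophages that other cells also express, at 7.53 ± 0.57 and 10.4 ± 1.48 CPM (SD, n = 4). PTPRC had at most 1 count in any library, and CD3E and HBB had none. The part of these markers in the histone results was not tested.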

How the data were processed

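RNA of 4 vehicle and 4 TP-472 replicates was measured, and the sample titles gave the groups. The paper's methods describe strand-specific libraries from total RNA, whereas the labels name a TruSeq RNA kit without saying whether poly(A) RNA was selected. The authors estimated transcript abundance with Salmon 1.4.0 and summed it to GENCODE release 34 genes with tximport on GRCh38, and the deposited estimated counts are neither normalized nor filtered. Between 13.8% and 23.2% of the values per library were not whole, and all were rounded.

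A gene needed over 1 CPM in 4 or more of the 8 libraries to be tested, with TMM scaling and the quasi-likelihood test of edgeR 4.0.16 in R 4.3.3. Adjusted p-values are over all 14073 genes. Standard errors are the absolute log2 fold change divided by the square root of F. Sums of shared-read genes and genes under the filter had a two-sided exact permutation test over 70 assignments. Coordinates, transcripts and the 31-base comparison come from GENCODE release 29, and those of H3C2 from RefSeq, both on GRCh38. The 31-base comparison covered 46 of the 47 genes tested and both strands. Promoters are from RefSeq. Salmon divides reads among near-identical copies, so 15 of these 46 genes, those with under 50% of their 31-base stretches unique, may be uncertain singly. This number includes genes such as H2AC15, whose shared stretches lie in a gene on the opposite strand and which strand-specific reads can separate.

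Genes named are the histone genes tested, with values in every library for those called and for the highest of each class by mean CPM, the 3 highest under the filter, and of each companion list the called genes and the 2 with the highest mean CPM, besides core processing factors. The members and lists were chosen with earlier results of these data known. At these totals, 32574672 or more per library, the spread between replicates rather than counting limits the precision. Libraries of a group differed by more than counting noise, with a mean chi-square per gene of at least 12.8. Alternatives were DESeq2 1.42.0, limma 3.58.1 (voom with and without quality weights), other scalings and filters, unrounded counts, replicate number as a block, the adjusted p alone, and each library left out. Removal of the trend with GC content, a covariate for small RNAs, and the adjusted p alone without vehicle replicate 3 were added after seeing the data. The steps were checked on simulated counts.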

Additional observations from a re-analysis of the deposited data

Results flagged for a closer look

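Of 70 groups of 4 libraries examined (called genes, the highest gene of each class, summed levels and core factors), 11 held a library whose gap to its nearest neighbour as a share of the group's whole range exceeded Dixon's critical value. Chance gives about 1 in 20 for separate groups. These groups share libraries, and the summed levels hold genes also examined singly, such as H1-4 and H3C14, so the 11 are not independent. Vehicle replicate 3 was that library in 10 of the 11, with gaps of 0.962 for H2BC21, 0.876 for H1-3, 0.967 for H2AC11, 0.953 for H1-4, 0.968 for H3C14 and 0.868 for NPAT. The summed levels showed the same library apart, at 0.895 for class H1, 0.915 for class H3, 0.850 for H2AC18 plus H2AC19 and 0.975 for H3C13 plus H3C14. For H4C15, vehicle replicate 1 was apart with a gap of 0.890. Why vehicle replicate 3 differs was not tested.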

How the results depend on the processing

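The number of histone genes called lower was 11 with all libraries and 3 to 13 when each library was left out, with 7 without vehicle replicate 3, 6 without TP-472 replicate 1 and 3 without TP-472 replicate 4. The number called higher was 3 to 4 over the same fits, and the number called in either direction 6 to 16, with 9 without TP-472 replicate 1 and 6 without TP-472 replicate 4. With no filter on low counts, 14 of 67 were called lower and 6 higher, and the median log2 fold change was −0.067, against 0.12 over all genes. With the GC trend removed, 8 of 46 were called lower (17.4%, beside 14.8% of all genes), 5 of them among the 11, and 5 higher (10.9%, beside 13.3%). The calls gained were H2AC6, H2BC18 and H2BC20P lower and H3C4 and H3C12 higher. With that trend removed and vehicle replicate 3 left out, 9 were called in all, 5 of them lower (10.9%, beside 12.9%) and 4 higher (8.70%, beside 12.4%). Without vehicle replicate 3 and by the adjusted p alone, 28 passed, 24 of them lower, and 8024 of all genes passed. Of the called genes, H2AC21, H4C15, H2BC8, H2BC15 and H4C1 kept their calls in the 19 refits other than those added after seeing the data, but with the GC trend removed H2AC21, H4C1, H2BC17, H4C11 and H4C12 were not called, and H3C2, without a GC value, was not in that fit. No named gene that was called changed sign. The class ratios were 0.595 to 0.765 for H1, 0.704 to 0.815 for H2A, 0.683 to 0.758 for H2B, 0.648 to 0.780 for H3 and 0.835 to 0.966 for H4 over the scalings, filters and left-out libraries run. The highest of H1, H2A, H2B and H3 and the lowest of H4 were those without vehicle replicate 3.

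Replicate numbers are in the titles, but same-numbered libraries did not deviate together (correlations of −0.18 to 0.12), so they share only a number. With the replicate block, 13 histone genes were called, 10 of them lower, with a median of −0.25, and 3055 of all genes, against 3789. Counting error weighs most for the tested genes with the fewest counts, H3C12, H3C4 and H2BC6.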
